A study of Homo sapiens with 4 samples.

Results

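The major cluster of replication-dependent histone genes lies on the short arm of chromosome 6. It holds most of the human genes for the linker histone H1 and for the core histones H2A, H2B, H3 and H4. These genes are transcribed in large amounts while DNA is copied, to package the new DNA, and their mRNAs end in a stem-loop instead of a poly(A) tail. Transcription takes place at a nuclear structure called the histone locus body, where the coactivator NPAT collects. ATF3 is a stress-induced bZIP transcription factor, and bZIP factors of its family bind the palindrome TGACGTCA, known as the cAMP response element (CRE), and related sites.

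ATF3 was mapped by CUT&Tag, in which an antibody brings a transposase to chromatin to cut and tag the DNA nearby. The cells were SW480, an established colorectal cancer line, and were held for 24 h in either full or cystine-restricted medium. Cystine, the oxidised dimer of cysteine, is the form most cells take up. Each medium had 2 libraries, all with the same ATF3 antibody, and no genotype, drug or other agent is named for either medium. The labels do not say that libraries of a medium came from separate cultures, so a p-value here measures no more than how these samples spread, and that spread may be technical. Libraries lacking the ATF3 antibody were not analysed here, so antibody-dependent tags and tags from accessible chromatin in general cannot be told apart.

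Peaks of the 4 lists that shared at least 1 bp were merged into regions. The histone regions are those that overlap 3 blocks of chromosome 6 in hg19, chr6:26015000-26290000, chr6:27095000-27120000 and chr6:27770000-27870000. There were 39 of them among 44826 regions in all, with 24 in the first block, 4 in the second and 11 in the third. They are called region 1 to region 39 here, in order along the chromosome. The gene annotation used here is of another build, GRCh38.p14, so no region is assigned to a single histone gene.

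Promoter sequences of the histone genes were read from RefSeq (GRCh38.p14). Whether the ATF3 regions lie on these promoters was not tested. Of 55 listed histone genes of the cluster, 50 had a promoter window, from 250 bases before the transcription start to the first 50 transcribed bases, and several starts of a gene gave 54 windows in all. TGACGTCA was present in 8 of the 54 windows, or 14.8%, against 1.85% of all 35116 promoter windows. The 8 windows belong to 7 genes, and the 210 bases before the start of each are shown, 5′ to 3′ on the gene's strand, because they hold the element that ATF3 and its relatives are known to bind. Capitals mark TGACGTCA and the octamer ATTTGCAT (ATGCAAAT on the other strand), which is bound by the POU factor OCT1 in H2B promoters. Coordinates on these lines are GRCh38.p14. They were not converted to hg19, the build of the regions, so the positions were not compared here.
H2AC14 (chr6:27814778-27814987, GRCh38.p14, minus strand): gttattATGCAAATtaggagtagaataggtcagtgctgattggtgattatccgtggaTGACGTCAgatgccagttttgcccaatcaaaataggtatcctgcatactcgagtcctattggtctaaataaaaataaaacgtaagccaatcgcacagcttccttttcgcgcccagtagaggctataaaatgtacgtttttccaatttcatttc
H2AC16 (chr6:27865107-27865316, GRCh38.p14, plus strand): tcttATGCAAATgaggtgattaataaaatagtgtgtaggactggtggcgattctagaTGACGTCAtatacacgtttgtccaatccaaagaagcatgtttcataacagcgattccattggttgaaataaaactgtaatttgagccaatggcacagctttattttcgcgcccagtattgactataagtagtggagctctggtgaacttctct
H2BC12 (chr6:27146859-27147068, GRCh38.p14, minus strand): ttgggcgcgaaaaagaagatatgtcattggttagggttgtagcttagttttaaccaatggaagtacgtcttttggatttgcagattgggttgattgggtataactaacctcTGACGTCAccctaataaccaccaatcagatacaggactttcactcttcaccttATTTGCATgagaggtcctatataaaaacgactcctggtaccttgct
H2BC14 (chr6:27814812-27815021, GRCh38.p14, plus strand): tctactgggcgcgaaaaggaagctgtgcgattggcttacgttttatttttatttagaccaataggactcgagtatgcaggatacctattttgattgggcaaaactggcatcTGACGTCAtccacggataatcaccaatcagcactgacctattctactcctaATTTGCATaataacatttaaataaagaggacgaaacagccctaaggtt
H3C2 (chr6:26032100-26032309, GRCh38.p14, minus strand): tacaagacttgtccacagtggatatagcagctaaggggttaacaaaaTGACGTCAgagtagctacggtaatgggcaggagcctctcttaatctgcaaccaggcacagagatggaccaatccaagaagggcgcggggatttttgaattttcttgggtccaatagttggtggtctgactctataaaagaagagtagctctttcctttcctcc
H4C5 (chr6:26204400-26204609, GRCh38.p14, plus strand): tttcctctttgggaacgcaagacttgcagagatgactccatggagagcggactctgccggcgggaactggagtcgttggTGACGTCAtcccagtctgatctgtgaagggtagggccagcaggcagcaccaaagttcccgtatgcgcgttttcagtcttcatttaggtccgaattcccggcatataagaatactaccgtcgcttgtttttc
H4C8 (chr6:26285535-26285744, GRCh38.p14, minus strand): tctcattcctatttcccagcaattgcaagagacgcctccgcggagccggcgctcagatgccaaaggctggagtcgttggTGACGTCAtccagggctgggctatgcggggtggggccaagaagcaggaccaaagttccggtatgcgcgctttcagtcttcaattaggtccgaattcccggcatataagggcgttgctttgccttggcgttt

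The element lay at the same place, 131 bases before the start, in H4C5 and H4C8, which both encode histone H4. In H2AC14 and H2AC16 it began 153 bases before the start, in H2BC14 99 bases, in H2BC12 99 or 102 bases for its 2 starts, and in H3C2 163 bases. H2AC14 and H2BC14 are neighbours transcribed away from each other and share 1 element, so the 7 genes hold 6 distinct sites. The 4 H2A and H2B genes of this group also hold the octamer, and H2AC14 and H2BC14 share theirs.

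The octamer and CCAAT parted the histone types more sharply than the CRE did. The octamer was found in 9 of 11 H2A and 13 of 17 H2B windows, in 1 of 10 H3 windows and in none of the 6 H1 and 10 H4 windows, against 1.77% of all windows. Neighbouring genes can share an octamer, and the 22 genes with it held 14 distinct sites. CCAAT, bound by the factor NF-Y, was in each H1, H2A, H2B and H3 window and in 3 of 10 H4 windows, against 34.6% of all. TATAAA, the TATA box, was in 36 of the 54 windows, or 66.7%, against 11.5% of all. The AP-1 site TGACTCA, found in 4.95% of all windows, and TGATGCAA, the composite site of C/EBP and ATF factors, found in 0.866%, were in none of the 54. All motifs were searched on both strands, windows of neighbouring genes can overlap, and a match describes the letters of a window, not a bound site.

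**Figure D1:**
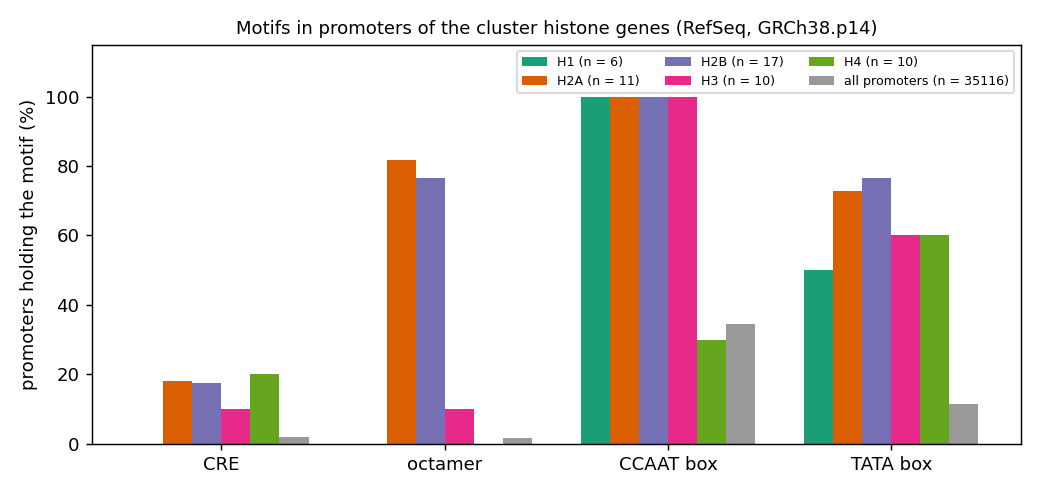
Share of promoter windows (percent) that hold the CRE (TGACGTCA), the octamer (ATTTGCAT), CCAAT or TATAAA, for the cluster genes of each histone type and for all promoters. The octamer bars are high for H2A and H2B alone (81.8% and 76.5%), and the CRE bars lie between 0% for H1 and 20% for H4, against 1.85% for all promoters.

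Beyond the cluster, 15 other replication-dependent histone genes had a promoter window, and TGACGTCA was in 2 of the 15. Of 8 genes for histone transcription and mRNA processing, among them NPAT and the stem-loop binding protein SLBP, 7 had a window and none of these held it. Peaks were not assigned to single genes of these lists.

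ATF3 regions were dense in the histone cluster. The 3 blocks together span 400 kb and held 9.75 regions per 100 kb, against 2.96 in the 1455 kb of chromosome 6 between them, 0.987 over chromosome 6 and 1.52 over all chromosomes. Counting those with a peak in every library, the densities were 4.0 per 100 kb in the cluster, 0.619 between the blocks, 0.213 over chromosome 6 and 0.351 over all chromosomes. The smaller histone clusters of chromosome 1, whose spans could not be checked against an hg19 annotation, held 14 regions or 9.33 per 100 kb, of which 4 were common to all libraries. Within the histone cluster, the second block was the densest, with 16 regions per 100 kb, against 8.73 in the first and 11 in the third. A span of 3800 kb over the major histocompatibility complex, on the same chromosome arm, held 3 regions, none with a full-medium peak. That span too was not checked against an annotation, and the lists hold 7 peaks on alternate haplotype sequences of chromosome 6 that were left out here, whose part in this low count was not tested. How densely genes and uniquely alignable sequence fill these spans was not analysed here, and these densities were not tested.

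**Figure D2:**
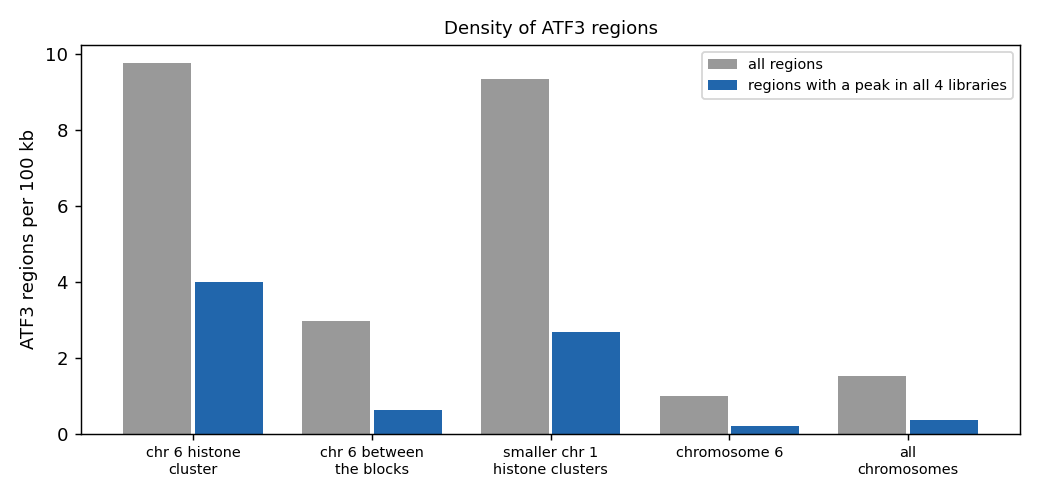
ATF3 regions per 100 kb in the histone cluster, in chromosome 6 between its blocks, in the smaller histone clusters of chromosome 1, in chromosome 6 and in all chromosomes. Grey bars count all regions and blue bars those with a peak in all 4 libraries. The bars of the histone clusters on chromosomes 6 and 1, at 9.75 and 9.33 per 100 kb for all regions, stand above the others.

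Histone regions were often found in every library. A peak was listed in all 4 libraries at 16 of the 39 regions (41.0%), against 23.0% of all regions. The background share is for regions as they fall across the genome, and the blocks are small, so the excess is a description. Of the others, 5 regions were in 3 libraries, 5 in 2 libraries and 13 in a single library. Both cystine-restricted libraries had a peak at 24 regions and both full-medium libraries at 16, which are the same 16 that were common to all. Over all regions, 12.7% had both restricted libraries alone, 5.87% had full-medium library 2 as well and 4.43% had full-medium library 1. Both full-medium libraries alone gave 0.386%, with restricted library 2 as well 0.413% and with restricted library 1 0.964%. This imbalance is thus not particular to the cluster. No histone region was lost, that is, listed in both full-medium libraries and in neither restricted one, and 0.386% of all regions were.

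**Figure D3:**
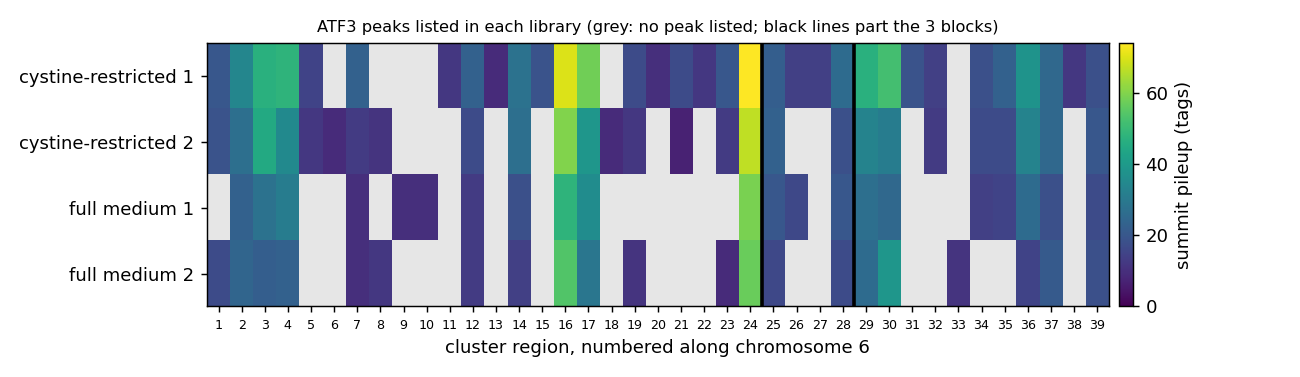
Summit pileup in tags (colour) of the highest peak at each of the 39 histone regions (columns, in order along chromosome 6) in each library (rows), with grey where no peak was listed. Regions 16 and 24 have the brightest column in each library, and grey cells are more frequent in the full-medium rows.

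The cluster had more peaks and a larger covered length under cystine restriction. It held 35 and 31 peaks in cystine-restricted libraries 1 and 2 and 26 and 24 in full-medium libraries 1 and 2. Each restricted library was above each full-medium library, at 33 ± 2.8 peaks for restriction and 25 ± 1.4 for full medium (mean ± SD, n = 2 each). The ratio was 1.32, where all peaks gave 1.73. The peaks covered 20.9 and 15.7 kb under restriction and 10.5 and 11.4 kb in full medium, a ratio of means of 1.67, where all peaks gave 1.89. Both differences were larger than those between libraries of the same medium, but an exact two-sided permutation test gave p = 0.33 for each, the lowest value that 2 libraries against 2 can reach. When every list was trimmed to the length of the shortest, keeping its top peaks, the ratio of peak numbers in the cluster was 0.857. By block, the mean peak number was 20 against 14 in the first, 3.5 in both media in the second and 9.5 against 7.5 in the third.

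The strength of a peak is given here as its summit pileup, the number of tags stacked at its highest point. It was recovered from the deposited fold and −log10 p and divided by the genome background, the mean pileup expected over the whole genome, which was 1.30 and 1.08 tags in the restricted libraries and 1.11 and 1.32 in the full-medium ones. At the 16 common histone regions the median of this ratio was 27.7 and 26.8 under restriction and 21.7 and 16.3 in full medium. At all 10331 common regions it was 27.0 and 25.8 under restriction and 19 and 16.7 in full medium. The common histone regions were close in height to common regions in general in each library except full-medium library 1, where they were higher.

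Region 24 (chr6:26285376-26286484), at the end of the first block, was the highest of the cluster. Its pileup over the genome background was 57.0 and 61.8 in the restricted libraries and 53.3 and 43.2 in the full-medium ones. Restricted libraries were above both full-medium libraries here, yet the log2 change of 0.31 ± 0.23 (SE) was among the smallest of the cluster and did not pass (limma adjusted p = 0.288). Region 16 (chr6:26204199-26205168) was next, with 53.9 and 55.4 under restriction and 43.4 and 41.0 in full medium, and a change of 0.37 ± 0.23 that did not pass (limma adjusted p = 0.186). Both regions had a high peak in each library, and the media were apart without overlap.

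Region 17 (chr6:26205472-26206702) begins 303 bp after region 16 and was the third in height. It stood at 44.7 and 36.0 under restriction and 32.5 and 22 in full medium, with a log2 change of 0.58 ± 0.26 (limma adjusted p = 0.0832). The media did not overlap, and the full-medium libraries differed from each other by more than the nearest libraries of the 2 media did. In the cluster, 7 of the 36 histone regions followed by another in their block lay under 500 bp from it (19.4%, against 12% of all regions and the next on their chromosome), while the median gap within a block was 6124.5 bp and the widest 47754 bp.

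Of the 16 common histone regions, 5 rose under cystine restriction and none fell. The test was limma on the log2 ratio of pileup to genome background, fitted over all 10331 common regions with Benjamini-Hochberg adjustment, and a region was called at an adjusted p under 0.05. Over all common regions 37.2% were called higher and 0.155% lower, so that 5 of 16 (31.2%) is near the background. An unadjusted p under 0.05 was found at 8 of the 16 and at 51.1% of all. The called regions were 3, 7, 12, 14 and 36, of which 4 lie in the first block and 1 in the third.

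Region 3 (chr6:26026012-26026802) had the largest change of the cluster. It stood at 36.2 and 41.5 times the genome background under restriction and at 25.3 and 16.7 in full medium. The media were well apart, and the log2 change was 0.92 ± 0.25 (limma adjusted p = 0.0163). Region 36 (chr6:27805628-27806883) in the third block stood at 29.3 and 30.4 under restriction and at 23.5 and 11.4 in full medium. Here the 2 restricted libraries were alike, the full-medium libraries differed by more than 2-fold, and the change was 0.87 ± 0.30 (limma adjusted p = 0.0382).

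Region 14 (chr6:26188686-26189537) stood at 21.6 and 24.9 under restriction and at 16.3 and 10.6 in full medium, with a log2 change of 0.82 ± 0.26 (limma adjusted p = 0.0262). Region 7 (chr6:26055235-26056150) was the lowest of the common histone regions in full medium, at 9.04 and 7.59, and stood at 17.7 and 12 under restriction, a change of 0.82 ± 0.25 (limma adjusted p = 0.0254). Region 12 (chr6:26157297-26158588), the widest of the cluster with 1292 bp, stood at 17.7 and 15.7 under restriction and 11.7 and 9.86 in full medium, a change of 0.63 ± 0.23 (limma adjusted p = 0.0470). In each of these the restricted libraries were above both full-medium libraries. The calls were not stable when a library was left out, here or over all common regions, and such a fit has 1 library in a medium. Without full-medium library 2 each of the 5 changes was smaller, from 0.35 at region 36 to 0.69 at region 7. The median over all common regions was then 0.445. Without restricted library 2 region 7 had 1.10, and regions 3, 12, 14 and 36 had 0.82, 0.72, 0.71 and 0.84 (median of all 0.581). Without restricted library 1 regions 3, 14 and 36 had 1.01, 0.92 and 0.90, and regions 7 and 12 had 0.53 and 0.54 (median of all 0.496). Without full-medium library 1 the 5 changes ran from 0.76 at region 12 to 1.39 at region 36 (median of all 0.616). With pileups summed over all peaks of a region, 1 of the 5 remained by limma, where 9.76% of all common regions were called higher. This was region 7 at 1.26, while regions 3 and 14 stayed at 0.92 and 0.82 and regions 12 and 36 stood at 0.13 and 0.07.

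A further 3 regions were among the strongest 8 of the cluster. Region 4 (chr6:26032208-26033194) stood at 37.0 and 32.3 under restriction and 28.0 and 17.4 in full medium, and region 29 (chr6:27775268-27776376) at 36.2 and 30.4 against 24.4 and 19.7. Their log2 changes, 0.64 ± 0.26 and 0.60 ± 0.24, missed the threshold (limma adjusted p = 0.0664 and 0.0606), and the media did not overlap in either. Region 30 (chr6:27781983-27783229) stood at 40.1 and 28.6 under restriction and 22.6 and 29.6 in full medium, and there full-medium library 2 was above restricted library 2.

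**Figure D4:**
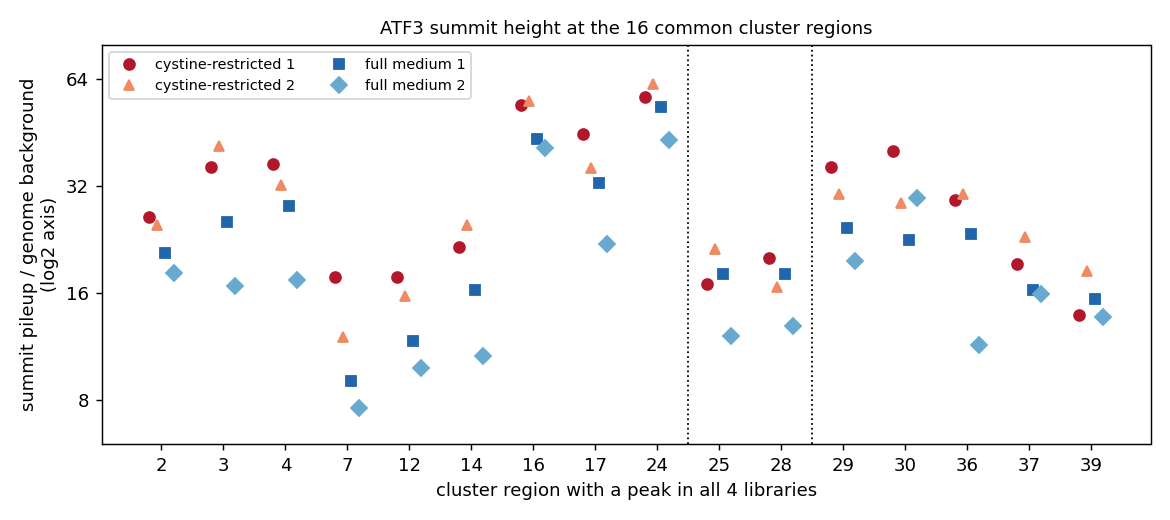
Summit pileup over the genome background (log2 axis) in each library at the 16 histone regions with a peak in all 4 libraries, with dotted lines between the 3 blocks. Red and orange points (cystine-restricted) lie above blue ones (full medium) at each of the 9 regions of the first block, and the colours mix at both regions of the second block and at regions 30 and 39 of the third.

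The 3 smallest changes were those of region 39, region 28 and region 24, the highest of the cluster. Region 39 (chr6:27862790-27863426), the last of the cluster, stood at 13.9 and 18.5 under restriction and 15.4 and 13.7 in full medium, and the log2 change was 0.14 ± 0.24 (limma adjusted p = 0.632). Region 28 (chr6:27114213-27115424) stood at 20 and 16.6 under restriction and 18.1 and 12.9 in full medium, with a change of 0.26 ± 0.25 (limma adjusted p = 0.403). The media overlapped in both. The remaining common regions, 2, 25 and 37, had changes of 0.39, 0.36 and 0.39. The median change was 0.63 over the 9 common regions of the first block, 0.31 over the 2 of the second and 0.39 over the 5 of the third. The difference between blocks was not tested.

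As a group, the common histone regions had a median change close to that of all common regions. The change was above 0 at 16 of 16 histone regions and at 92.0% of all common regions. Both restricted libraries were above both full-medium libraries at 12 of the 16, or 75%, against 72.8% of all, and below both at none, against 2.38% of all. The median log2 change was 0.49, with a range from 0.14 to 0.92, against 0.53 over all common regions, whose middle 50% lay between 0.29 and 0.78. Set against that general shift of 0.53, 8 histone regions lay above it and 8 below. With pileups centred on the median of all common regions in each library, no histone region was called by limma or had an unadjusted p under 0.05, and the counts over all regions were 177 higher and 124 lower in place of 3841 and 16. The difference between the histone median and the median of all regions, taken per library, was 0.04 and 0.05 under restriction and 0.19 and −0.03 in full medium (log2 units), and 2 libraries against 2 cannot show whether it differs between media.

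**Figure D5:**
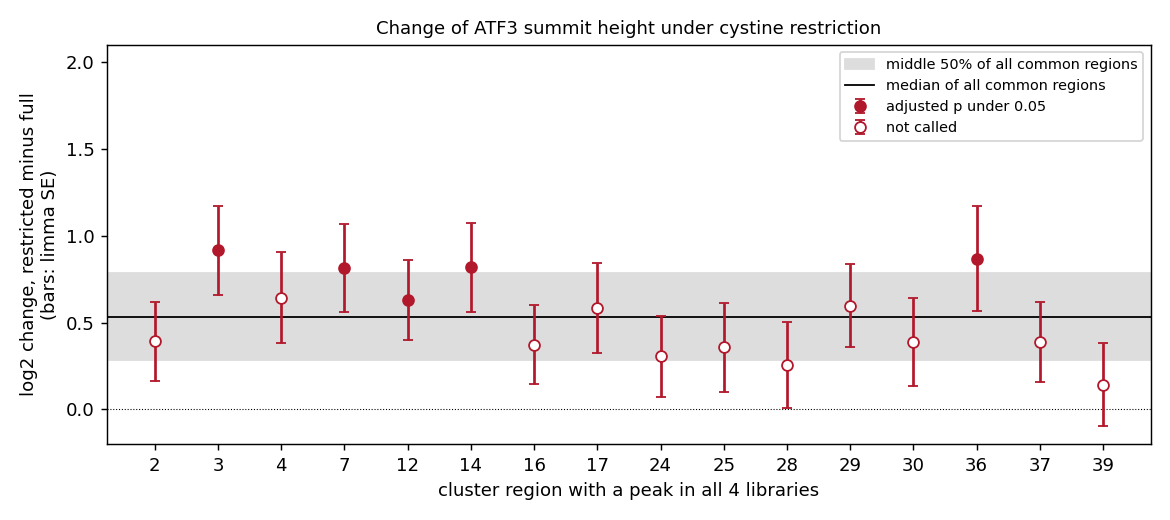
log2 change of summit pileup over genome background (restricted minus full medium, bars: limma SE) at the 16 common histone regions, filled where the adjusted p was under 0.05. The grey band is the middle 50% of all 10331 common regions (0.29 to 0.78) and the line their median of 0.53, and 8 histone regions lie on each side of the line.

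Single pairs of libraries show where the spread lies. Histone regions in restricted library 1 differed from restricted library 2 by a median of 0.02 (log2), with 8 of 16 higher. Full-medium library 1 was above full-medium library 2 at 15 of the 16, by a median of 0.30 (0.16 over all common regions). Across the media the 4 medians were 0.37 and 0.33 against full-medium library 1, and 0.74 and 0.64 against full-medium library 2. Over all common regions they were 0.49 and 0.41 against full-medium library 1, and 0.66 and 0.58 against full-medium library 2. Full-medium library 1 thus stood between the restricted libraries and full-medium library 2 in this cluster and over all common regions.

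The local background of the peaks rose as well. The peak caller takes it from the neighbourhood of a peak. It can include the peak's own tags and, in a dense cluster, those of other peaks, so its rise is not a separate measurement. At the median common histone region it was 2.99 and 2.80 times the genome background under restriction and 2.33 and 1.75 times in full medium. It was higher under restriction at 16 of 16 regions, by 0.34 to 0.77 on the log2 scale and a median of 0.49, against a median of 0.37 over all common regions, of which 90.6% rose. The deposited fold is the summit pileup over this local background, each with 1 tag added. It changed less, by a median of 0.08 (log2) in the cluster and 0.21 over all common regions. The added tag can change the sign: at region 12 the summit rose by 0.63, the local background by 0.77 and the fold by 0.05. The fold was higher at 12 of the 16 histone regions and at 82.5% of all common regions. No histone region was called on the fold by limma, with 1 at an unadjusted p under 0.05. Across the 16 regions the change of the summit and the change of the local background had r = 0.47 and rho = 0.47 (0.78 and 0.75 over all common regions). Points of that relation share libraries and tags.

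The change did not follow the height of the peaks within the cluster: the 2 highest regions had changes of 0.31 and 0.37 and the fifth-highest, region 3, had 0.92. The change and the mean pileup over genome background had r = −0.11 and rho = −0.02 across the 16 histone regions, against 0.18 and 0.24 across all 10331 common regions. These are across regions that share the 4 libraries, and regions are not independent replicates.

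The highest peak of a common histone region was broad. Its median width was 866.5 and 753.5 bp in the restricted libraries and 533 and 595 bp in the full-medium ones, against 759, 681, 503 and 529 bp over all common regions. Summits were in nearly the same place in all libraries at several regions: the 4 summits lay within 7 bp at region 30, 8 bp at region 39 and 13 bp at region 4. The spread was under 200 bp at 10 of the 16 regions, with a median of 90 bp (124 bp over all common regions), and reached 796 bp at region 12, where 3 of the libraries had 2 peaks.

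Gained histone regions, which had a peak in both restricted libraries and in no full-medium library, numbered 3 (7.69%, against 12.7% of all regions). Region 21 (chr6:26243269-26243707) had summit pileups of 17 and 7 tags, region 5 (chr6:26033408-26033958) of 15 and 12 tags, and region 32 (chr6:27792257-27792683) of 14 and 13 tags. All were low beside the common histone regions, whose median pileup was 36 and 29 tags in the same libraries. A common region must be listed in every library, so this difference follows in part from how the classes are defined. At the median local background of the cluster's peaks, a full-medium summit needs 10 tags in library 1 and 9 in library 2 to reach the lowest −log10 p in the list, so a gained region can still have had a lower stack of tags there. Region 5 begins 213 bp after region 4, and region 32 lies between region 31, listed in restricted library 1 and 97 bp away, and region 33, listed in full-medium library 2 with 11 tags and 12 bp away. A full-medium peak thus lies beside region 32, although it shares no base with it.

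There were 5 regions that lacked 1 full-medium library only. Regions 1, 19 and 23 had no peak in full-medium library 1 and regions 34 and 35 none in full-medium library 2. Their restricted summits were between 12 and 23 tags and their full-medium summits between 9 and 17. Over the genome background, both restricted libraries were above the listed full-medium library at each of the 5, by the least at region 34 (13.9 and 15.7 against 12.7) and by more at region 23 (15.4 and 12 against 6.83). By definition 1 full-medium peak is missing at these regions, which favours a low value in the other, so this order is no measure of the medium. The share over all such regions was not analysed here. Region 8 was listed in restricted library 2 and full-medium library 2, with 11 and 12 tags, and region 26 in restricted library 1 and full-medium library 1, with 14 and 16. Regions 8 and 26, with 1 library of each medium, do not part by medium.

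Single-library regions were mostly weak. Of the 13, 8 were in restricted library 1, 2 in restricted library 2, 2 in full-medium library 1 and 1 in full-medium library 2. Restricted library 1 thus gave 61.5% of them, and 47.0% of the single-library regions over all chromosomes. Their pileups ran from 9 to 19 tags, with a median of 11, and their widths from 150 to 433 bp. Regions 15 and 31 had the 19 tags, above 53.0% of the peaks of restricted library 1, where they were listed. Single-library regions made up 33.3% of the histone regions and 46.4% of all regions.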

How the data were processed

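The deposited data are 1 peak list per library in the narrowPeak layout. The submitters' processing notes name MACS2 2.2.7.1, BWA 0.7.17, fastp 0.19.7 and bcl2fastq 2.17 with build hg19. The options of peak calling are not stated there. For each peak the authors deposited a fold, −log10 values of p and q, and a score of 10 times the −log10 q. The fold was read as summit pileup over local background, each with 1 tag added. The files give no read counts. The whole-number pileup that fits the deposited fold and −log10 p was recovered for 100% of peaks to within 0.1% of the −log10 p, and the lowest background in a list was taken as the genome background, which is proportional to depth.

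Peaks on chromosomes 1 to 22 and X were merged over at least 1 bp. Regions with a peak in all 4 libraries were fitted with limma 3.58.1 (R 4.3.3), without the replicate number. Requiring 4 peaks leaves out regions too low in a medium, so calls describe common regions only. The pileup recovery was tested on values made by the same formula, and the limma step on simulated data without a general shift between media. That simulation does not bear on calls under a shift such as the one seen here. Other steps ran in Python 3.11.15 with pandas 2.3.3, scipy 1.17.1 and numpy 2.4.6. Full values are given for the 8 strongest common regions, the gained regions, the 3 largest and 3 smallest changes, the widest region and the called regions. Called regions were added to that rule after their values were seen. The members and gene lists were chosen with earlier results of these data known. The planned naming of regions by gene and the search of region sequences were not run, since no hg19 genome was used here, and the cell line label was not checked against marker genes.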

Additional observations from a re-analysis of the deposited data

How the results depend on the processing

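The common histone regions numbered 16, and 9 of 68 with a reciprocal overlap of 50% (6856 of 60006 over all regions). Gained regions numbered 3, and 1 of 30 when lists were trimmed to equal length (1840 of 27924 over all). With 1 library left out 5 to 12 were gained and 0 to 3 lost, since fewer libraries are then required. The most were gained without restricted library 2, at 12 of 38 (15954 of 39096 over all). The most were lost without full-medium library 2, at 3 of 39 (2035 of 42452 over all). With reciprocal overlap 1 of 68 was lost (859 of 60006 over all). The ratio of peak numbers was 1.32, and 0.857 with lists of equal length, a setting that fixes the ratio over all peaks at 1. The ratio of covered bases was 1.43 to 1.90 with 1 library left out and 1.36 with lists of equal length. The median change of 0.49 was 0.34 to 0.70 with 1 library left out, −0.08 with median-centred scaling and 0.08 on the deposited fold. The 5 calls became 0 under either of these and 0 to 8 with 1 library left out, and 1 (region 7) with pileups summed over the peaks of a region. Over all regions, the 3841 higher calls became 1586 to 4455 with 1 library left out, 1008 with summed pileups, and 5 on the deposited fold. A prior variance that follows the mean level (added after the data were seen) kept 4 of the 5. It called 7 of the 16 histone regions higher, and 43.2% of all common regions. Another added setting, a local background of at most 3 times the genome background, left 8 histone regions with a median of 0.51. Of these 8, 2 were called higher, and of all 5011 regions 1211 (24.2%).

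By construction, median-centred scaling turned the changes below the median of all regions: region 2 to −0.18, region 16 to −0.19, region 24 to −0.26, region 25 to −0.21, region 28 to −0.31, regions 30 and 37 to −0.18 each and region 39 to −0.43. On the deposited fold, region 2 had −0.13, regions 16 and 28 −0.12 each and region 39 −0.16. Region 25 had −0.03 with summed pileups, and region 39 ran from −0.06 to 0.35 with 1 library left out. Beyond these points the cause was not tested. With the replicate number as a block (replicate block), the peak and base ratios were 1.32 and 1.65, the median change was 0.49 and 5 regions were called, the same 5. Same-numbered libraries deviated together with a correlation of 0.012, and the 2 numbers do not suffice to treat the samples as paired. The lowest listed summit pileup was 6 or 7 tags, so lower stacks of tags are not seen in these lists.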
